A study of Mus musculus with 7 samples.

Results

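The genes described here are the mouse olfactory receptors numbered Olfr829 to Olfr983, a block of odorant receptor genes on chromosome 9. They were taken by name: the rule covers every gene called Olfr plus digits with a number in that span and uses no measured value of a gene. The rule gave 107 genes of 1107 named in that way and of 54532 genes in the tables. All 107 are annotated on chromosome 9, 104 as protein coding and 3 as polymorphic pseudogenes, a class whose reading frame is intact in some mouse strains and broken in others.

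Odorant receptors are G protein-coupled receptors that sit in the cilia of olfactory sensory neurons and bind odorants. A mature neuron normally transcribes 1 allele of 1 receptor gene, while immature cells of the lineage can carry low levels of several receptors. A receptor's level in bulk RNA therefore joins the number of cells that chose it with the RNA each such cell holds, and fewer cells of a type and less RNA per cell cannot be told apart here.

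RNA was measured by polyA RNA-seq in cells sorted by flow cytometry from mouse olfactory epithelium. The OMP-GFP line gave mature olfactory sensory neurons at P2, P7 and P16 (postnatal days 2, 7 and 16). The Neurog1-GFP line gave intermediate progenitor cells at P3, P7, P9 and P16. OMP, the olfactory marker protein, and Neurog1, a transcription factor of neuronal precursors, name the GFP lines, so population and mouse line always changed together. Each age of a population was 1 library, and libraries of different ages were taken as replicates, 3 for mature neurons and 4 for progenitors. The sources used here do not give whether animals were pooled for a library.

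The libraries held 24203965 to 25930727 counts on genes. Of the mature neuron markers, 11 of 12 were higher in mature neurons, and all 10 progenitor markers and 9 of 10 immature neuron markers were lower there. The exception among mature markers was Omp itself, which averaged 1936 ± 442 CPM in the mature libraries, against 2566 ± 632 CPM in the progenitor libraries (CPM are gene counts scaled to library size; SD, n = 3 and n = 4), with an adjusted p of 0.179 in edgeR's quasi-likelihood test. Progenitors also held mature neuron markers, with a summed level over the 12 of 6592 to 10046 CPM, against 19906 to 28967 CPM in mature neurons. The P16 mature library stood apart in some of the marker lists of other cells and not in others. Its summed leukocyte markers reached 101 CPM, against 32.4 and 21.1 CPM at P2 and P7 and 7.45 to 26.4 CPM in progenitors, and 5 of the 7 genes were called higher in mature neurons. Its erythroid markers reached 288 CPM, against 34.9 and 41.8 CPM at P2 and P7 and 17.4 to 124 CPM in progenitors, with 1 of 5 called higher. Its Bowman gland markers reached 216 CPM, against 62.1 and 50.3 CPM at P2 and P7 and 22.9 to 34.2 CPM in progenitors, with 1 of 4 called higher. Most of that sum was Bpifb9a, at 22.8, 16.9 and 193 CPM at P2, P7 and P16. Of the rest, Muc5b was higher at P16 (0.93, 1.11 and 1.63 CPM) and Sox9 was even (1.60, 1.87 and 1.67 CPM). Aqp5 fell, at 36.7, 30.4 and 20.1 CPM. Ensheathing glia markers reached 50.1 CPM in the P16 mature library, against 20.2 and 28.0 CPM at P2 and P7 and 4.56 to 14.0 CPM in progenitors, with 5 of 5 called higher. Summed sustentacular markers were 3338, 3488 and 3098 CPM at P2, P7 and P16 in mature neurons and 1602 to 2288 CPM in progenitors, with 3 of 7 called higher. Microvillous markers were 26.3, 24.9 and 28.1 CPM at those ages, against 13.9 to 17.5 CPM in progenitors, with 1 of 4 called higher. Horizontal basal markers were 14.7, 7.66 and 13.0 CPM, against 10.4 to 12.9 CPM in progenitors, with 0 of 4 called. No marker of these lists was at 0 in all libraries, and the part of such cells in the results was not tested.

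The members lie in 2 clusters on the mm10 build. The proximal cluster holds 30 members, Olfr829 to Olfr873, within chr9:18854933-20303599. The distal cluster holds 77 members, Olfr874 to Olfr983, within chr9:37745106-40093595. Genes occur on both strands, 19 plus and 11 minus in the proximal cluster and 53 plus and 24 minus in the distal one. Coding sequences are 915 to 993 bases long, as is usual for this receptor family, and 91 members have a transcript with more than 1 exon.

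Most of the members were detected in both populations and were more abundant in mature neurons. At 1 TPM or more (TPM is a level per transcript length), 98, 98 and 91 members were found in P2, P7 and P16 mature neurons, against 91, 99, 92 and 96 in P3, P7, P9 and P16 progenitors. The number of detected receptors thus overlapped between the populations. It also did so over all 1107 Olfr genes, members included. Of these, 1030, 1024 and 989 reached 1 TPM in P2, P7 and P16 mature neurons. In P3, P7, P9 and P16 progenitors 997, 1041, 1028 and 1026 did. The median member stood at 7.41 TPM in mature neurons and 3.46 TPM in progenitors, taken over the mean level of each gene. By cluster, the median was 9.12 TPM in mature neurons and 3.48 TPM in progenitors for the proximal members. For the distal members it was 6.57 TPM in mature neurons and 3.33 TPM in progenitors. Together the members summed to 1225, 1196 and 818 TPM in the mature libraries and 398, 534, 442 and 456 TPM in the progenitor libraries.

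**Figure D1:**
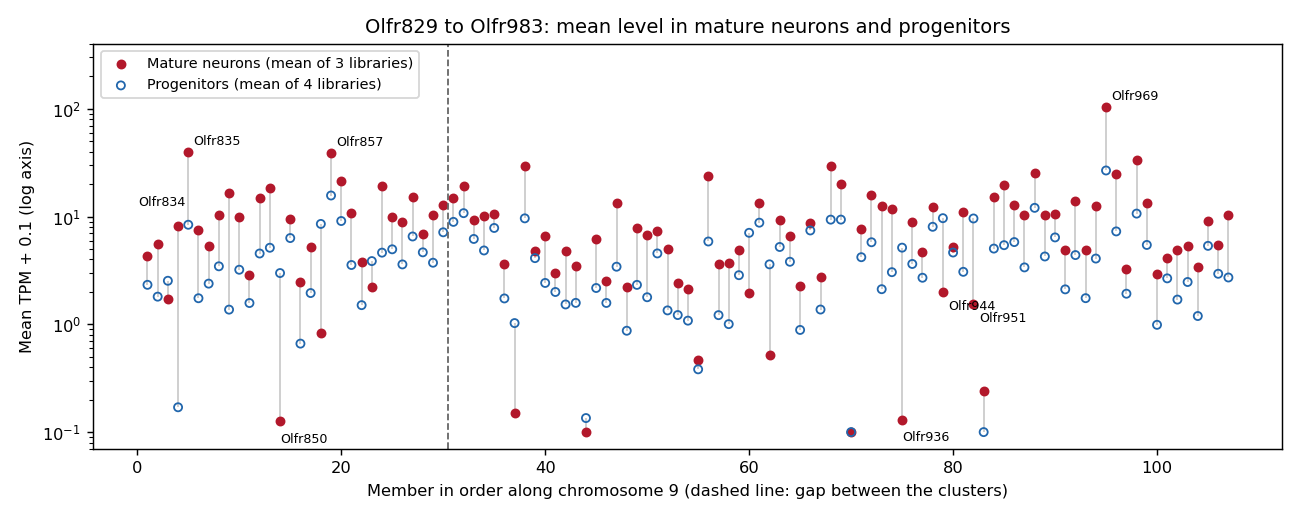
Mean TPM plus 0.1 (log axis) of each of the 107 members in mature neurons (filled, 3 libraries) and progenitors (open, 4 libraries), in their order along chromosome 9, with a dashed line at the gap between the proximal and the distal cluster and a grey line joining the 2 means of a gene. Olfr969 is highest in both populations at 104 TPM in mature neurons and 26.7 TPM in progenitors, and a few genes such as Olfr850 and Olfr936 run the other way from the rest.

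Of the 107 members, 102 had enough counts to be tested between the populations. In mature neurons 82 of the 102 were higher (80.4%) and 7 were lower (6.86%), while 13 did not pass the test (edgeR's quasi-likelihood test, Benjamini-Hochberg adjusted p under 0.05 over 17975 genes). Of all genes tested, 28.8% were higher and 30.0% were lower in mature neurons, 58.8% together. Among the 968 other tested Olfr genes, 695 were higher (71.8%) and 48 lower (4.96%). The median log2 fold change, mature neurons over progenitors, was 1.42 in the tested members, 1.19 in the other Olfr genes and 0.01 in all genes tested. By CPM, for 70 of the tested members every mature library lay above every progenitor library, and for 7 every mature library lay below, where 29.2% and 32.2% of all genes tested did so. The 2 clusters gave similar counts, with 24 higher and 2 lower of 30 tested in the proximal cluster and 58 higher and 5 lower of 72 in the distal cluster. Without the P16 mature library, 87 members were called higher and 7 lower. The share of all genes called in that fit is not given here, so this change is not read as one of the members.

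**Figure D2:**
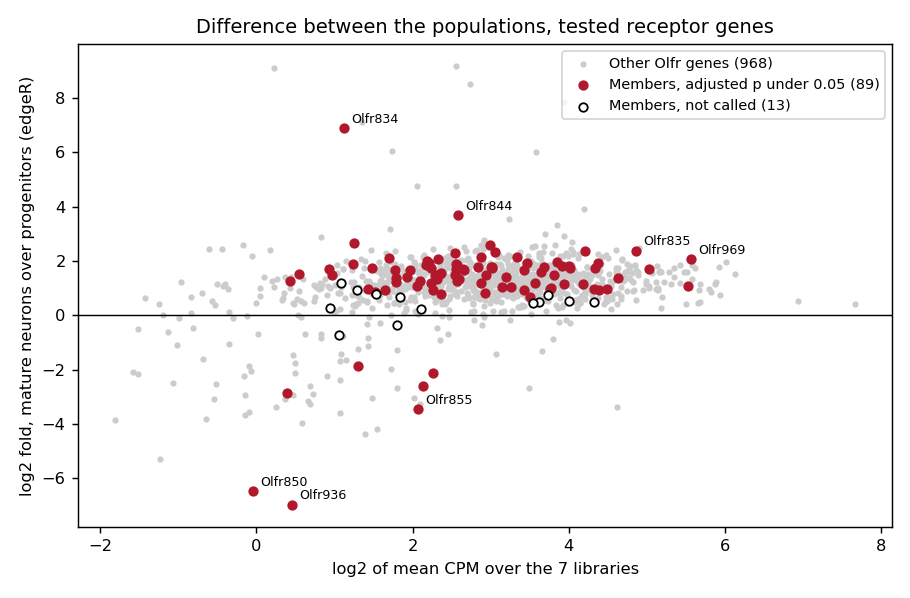
The log2 fold change of mature neurons over progenitors (edgeR, vertical) against the log2 of the mean CPM over the 7 libraries (horizontal) for the 102 tested members and 968 other tested Olfr genes (grey). The 89 called members are filled and the 13 not called are open, and most of the filled points lie between 0.67 and 3 above the zero line while 7 lie below it.

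Olfr969, at chr9:39790945-39796635 on the plus strand, was the most abundant member in every library. It reached 105, 108 and 98.0 TPM in P2, P7 and P16 mature neurons, against 28.1, 26.0, 26.4 and 26.3 TPM in P3, P7, P9 and P16 progenitors. Every mature library lay above every progenitor library, and each set was narrow. The log2 fold change was 2.06 (SE 0.07, adjusted p = 1.86e-06 in edgeR's quasi-likelihood test). This gene alone made up 8.61% to 11.99% of the members' summed TPM in mature neurons and 4.86% to 7.07% in progenitors.

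Olfr835, in the proximal cluster, had 41.7, 35.3 and 40.8 TPM in the mature libraries, against 7.18, 9.73, 8.83 and 7.47 TPM in the progenitor libraries. It ranked second in mature neurons but only 15th in progenitors, with a log2 fold change of 2.38 (SE 0.12, edgeR adjusted p = 6.15e-06). Olfr972, in the distal cluster, had 35.2, 33.5 and 31.2 TPM in mature neurons, against 9.09, 10.1, 12.7 and 10.3 TPM in progenitors. It too showed no overlap, with a log2 fold change of 1.81 (SE 0.10, edgeR adjusted p = 8.36e-06). Olfr849 had 20.2, 17.5 and 17.6 TPM in mature neurons, against 4.54, 4.97, 6.03 and 4.62 TPM in progenitors (log2 fold change 1.93, SE 0.09, edgeR adjusted p = 4.43e-06). In Olfr969, Olfr835, Olfr972 and Olfr849 the slope with age in mature neurons ran between -0.04 and 0.03 log2 units per doubling of age, which did not pass the test in any of them.

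Other abundant receptors were less even. Olfr857 had 51.2, 49.1 and 16.3 TPM in mature neurons, against 12.8, 21.9, 19.96 and 7.77 TPM in progenitors. Its P16 mature library fell inside the progenitor range, and P16 was its lowest library in both populations. The log2 fold change of 1.38 (SE 0.43, edgeR adjusted p = 0.022) no longer passed the test without mature P2 (1.09), mature P7 (1.22) or progenitor P3 (1.30). Olfr923 had 39.6, 38.4 and 10.5 TPM in mature neurons, against 9.21, 10.4, 6.98 and 10.5 TPM in progenitors. At P16 the populations stood at nearly the same level, and the log2 fold change over all ages was 1.75 (SE 0.39, edgeR adjusted p = 0.00499). Olfr959 had 33.6, 30.8 and 11.3 TPM in mature neurons, against 9.74, 14.9, 10.7 and 12.5 TPM in progenitors. The populations overlapped through the P16 mature library, and the log2 fold change of 1.09 (SE 0.31, edgeR adjusted p = 0.015) did not pass without mature P2 (0.84) or mature P7 (0.94). Olfr884 had 33.6, 33.5 and 20.7 TPM in mature neurons, against 9.34, 8.52, 7.10 and 13.2 TPM in progenitors. Olfr970 had 26.3, 29.1 and 19.3 TPM in mature neurons, against 6.50, 7.39, 7.08 and 7.78 TPM in progenitors. Both were lowest at P16 among the mature libraries and still above all progenitor libraries there, with log2 fold changes of 1.70 (SE 0.21) and 1.96 (SE 0.17) and edgeR adjusted p-values of 0.000258 and 4.73e-05. Olfr875, among the 4 most abundant members in progenitors, had 19.1 ± 6.90 TPM in mature neurons and 10.7 ± 2.46 TPM in progenitors (SD, n = 3 and 4), with a log2 fold change of 1.03 (SE 0.28, edgeR adjusted p = 0.0122) that did not pass the test without mature P7 (0.88).

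The size of the difference varied widely among the 82 members called higher. Their log2 fold changes ran between 0.67 and 6.89, 70 of them at 1 or more and 13 at 2 or more. Olfr844 had 19.4, 16.7 and 13.6 TPM in mature neurons, against 1.10, 0.93, 1.58 and 1.47 TPM in progenitors. It ranked 16th of the members in mature neurons and 91st in progenitors, with a log2 fold change of 3.68 (SE 0.19, edgeR adjusted p = 6.15e-06). Olfr834 was nearly confined to the mature libraries, at 8.12, 8.29 and 7.83 TPM, against 0.13, 0.15, 0 and 0 TPM in the progenitor libraries. It had 356 counts in the mature libraries together and 4 in the progenitor libraries, a ratio per depth of 134 (exact 95% interval 51.9 to 495, which covers counting error only), and an edgeR adjusted p of 2.09e-05. Over all members, mean levels in the 2 populations gave a Spearman rho of 0.65 (107 genes from the same 7 libraries), against 0.89 to 0.98 between pairs of mature libraries, and 0.94 (P3 and P16) and 0.93 (P7 and P9) in the 2 progenitor pairs computed.

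**Figure D3:**
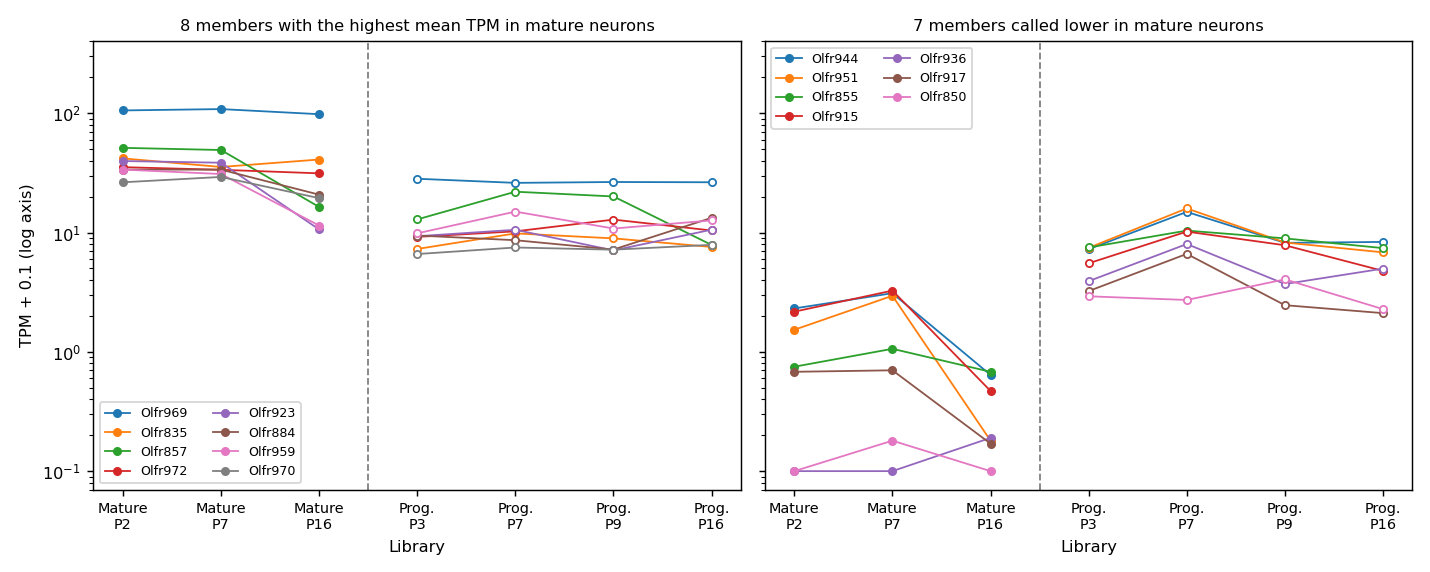
TPM plus 0.1 (log axis) in each of the 7 libraries, with mature neurons left of the dashed line and progenitors right of it; lines join the ages of a population for 1 gene. The left panel shows the 8 members with the highest mean in mature neurons, all with a lower mean in progenitors. Among the mature libraries all but Olfr835 are lowest at P16, and Olfr857, Olfr923 and Olfr959 fall the furthest there. The right panel shows the 7 members called lower in mature neurons, 6 of which peak in P7 progenitors, as does the median of all members.

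A group of 7 receptors ran the other way, and their mature libraries all lay below their progenitor libraries. Olfr855 had 0.65, 0.96 and 0.58 TPM in mature neurons, against 7.39, 10.3, 8.83 and 7.30 TPM in progenitors. It ranked 99th of the members in mature neurons and 14th in progenitors, with a log2 fold change of -3.46 (SE 0.24, edgeR adjusted p = 1.58e-05). Olfr850 had 0, 0.08 and 0 TPM in mature neurons, against 2.82, 2.62, 3.95 and 2.18 TPM in progenitors. The mature values rest on 1 count in 3 libraries, against 180 counts in the 4 progenitor libraries, a ratio per depth of 0.00837 (exact 95% interval 0.000211 to 0.0473). Olfr936 had 0, 0 and 0.09 TPM in mature neurons, against 3.81, 7.91, 3.60 and 4.88 TPM in progenitors. It too had 1 count over the mature libraries, against 253 in progenitors, a ratio per depth of 0.00596 (exact 95% interval 0.00015 to 0.0335). Adjusted p-values were 8.22e-05 for Olfr850 and 6.26e-05 for Olfr936 in the edgeR fit.

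The 4 others are in the distal cluster, and their mean levels in mature neurons ran between 0.42 and 1.92 TPM. Olfr944 had 2.21, 3.0 and 0.54 TPM in mature neurons, against 7.15, 14.8, 8.09 and 8.24 TPM in progenitors (log2 fold change -2.13, SE 0.48, edgeR adjusted p = 0.00492). Olfr951 had 1.43, 2.85 and 0.08 TPM in mature neurons, against 7.34, 15.8, 8.15 and 6.72 TPM in progenitors (log2 fold change -2.58, SE 0.72, edgeR adjusted p = 0.0139). These were among the most abundant members in progenitors, ranking 6th and 8th, but ranked 95th and 98th in mature neurons. Olfr915 had 2.07, 3.16 and 0.37 TPM in mature neurons, against 5.42, 10.1, 7.72 and 4.67 TPM in progenitors (log2 fold change -1.87, SE 0.54, edgeR adjusted p = 0.0167). Olfr917 had 0.58, 0.60 and 0.07 TPM in mature neurons, against 3.13, 6.52, 2.36 and 2.01 TPM in progenitors (log2 fold change -2.85, SE 0.62, edgeR adjusted p = 0.00451). All 4 were lowest in the P16 library among mature neurons and highest in the P7 library among progenitors. The median over all members had the same extremes. It was 8.37, 8.1 and 4.7 TPM in P2, P7 and P16 mature neurons. In P3, P7, P9 and P16 progenitors it was 2.96, 4.09, 3.33 and 3.14 TPM. These extremes are therefore not read as particular to the lower members.

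The annotation of the 7 lower members was not a factor in the test between populations, and its part in their counts was not tested. Olfr850, Olfr915, Olfr917 and Olfr936 are annotated with their coding sequence alone, as are 10 of the 107 members, while 2 of the 82 members called higher are. Olfr915 and Olfr936 are 2 of the 3 polymorphic pseudogenes. Olfr915 also shares exon bases with Gm49385 on the same strand, as does Olfr916, so reads there could be ambiguous. Ambiguous reads are left out of the counts, while the TPM values share reads out by estimation.

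The 13 members that did not pass the test were Olfr832, Olfr851, Olfr866, Olfr871, Olfr878, Olfr885, Olfr888, Olfr906, Olfr921, Olfr938, Olfr943, Olfr945 and Olfr961. Their mean levels ran between 1.61 and 12.2 TPM in mature neurons and between 1.12 and 7.95 TPM in progenitors, so low abundance was not common to them. The log2 fold changes lay between -0.71 and 1.18. The 5 members with too few counts to test were Olfr883, Olfr891, Olfr908, Olfr926 and Olfr952. Olfr926 had no count in any library, and Olfr883 had 0, 0.07 and 0.08 TPM in mature neurons, against 0.72, 1.57, 0.70 and 0.72 TPM in progenitors.

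Receptors with nearly the same sequence differed in level in some pairs and were alike in others. The coding sequence of each member was aligned with those of all Olfr genes, and 49 members had a relative at 90% identity or more and 18 at 95% or more. For 105 of the 107 the closest relative lies on chromosome 9. Reads that map to several genes are left out of the counts and are shared out by estimation in the TPM values, so levels of the closest pairs are less certain. The closest pair was Olfr952 (chr9:39426093-39427148) and Olfr955 (chr9:39465801-39471944), both on the minus strand, with 98.1% identity and 18 differences over 942 aligned bases. The 60 bases at coding positions 82 to 141, the window with the most differences, are printed 5′ to 3′ from the GENCODE transcripts (GRCm38), with differing positions in capitals, because they show how little separates the pair.
Olfr952: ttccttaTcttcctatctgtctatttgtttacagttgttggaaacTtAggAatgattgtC
Olfr955: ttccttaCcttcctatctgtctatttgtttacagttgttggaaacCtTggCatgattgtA
Olfr955 had 24.7, 19.6 and 14.2 TPM in mature neurons, against 4.21, 5.02, 6.08 and 6.01 TPM in progenitors, with a log2 fold change of 1.91 (SE 0.24, edgeR adjusted p = 0.000241). Olfr952 had 0.28, 0.14 and 0 TPM in mature neurons and 0 TPM in all 4 progenitor libraries. Olfr955 ranked 12th and Olfr952 102nd of the 107 members in mature neurons.

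Of the 8 pairs of members at 95% identity or more, 6 were over 2-fold apart in mean TPM in mature neurons and 2 were not, and in 3 pairs both genes had the same call. The 2 pairs that were alike were Olfr869 and Olfr872, at 8.90 and 10.3 TPM in mature neurons and 3.50 and 3.63 TPM in progenitors, and Olfr874 and Olfr875, at 14.7 and 19.1 TPM in mature neurons and 8.84 and 10.7 TPM in progenitors. In both, the mature libraries of the 2 genes overlapped. The pairs below were named after their values were seen. Olfr951 and Olfr954 share 96.1% of their coding sequence. Olfr954 had 15.2 ± 2.11 TPM in mature neurons (SD, n = 3) and 4.95 ± 1.11 TPM in progenitors (SD, n = 4), and was called higher, while Olfr951 was called lower. Olfr832 and Olfr834 share 95.5%, and Olfr832 had 1.61 ± 0.85 TPM in mature neurons and 2.44 ± 1.34 TPM in progenitors (SD, n = 3 and 4), while Olfr834 was nearly confined to the mature libraries. Olfr924 had 19.8 ± 5.30 TPM in mature neurons and 9.28 ± 2.70 TPM in progenitors (SD, n = 3 and 4), while Olfr926, at 96.1% identity, had no count. Neighbouring members did not track each other either. Over 100 pairs of adjacent tested members, the Spearman rho of mean TPM in mature neurons was -0.02, a description of genes that share the same libraries.

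With age, no member passed the test. For the slope on log2 postnatal day in mature neurons, edgeR's quasi-likelihood test called 0 of the 102 tested members, as it did 0.0% of all genes, and the smallest adjusted p of a member was 0.164. At an unadjusted p under 0.05 there were 3 positive and 17 negative slopes among the members, 19.6% of those tested, beside 18.3% of all genes and 33.0% of the other Olfr genes. DESeq2 on the same counts called 1 positive slope (Olfr921) and 4 negative slopes (Olfr877, Olfr902, Olfr923 and Olfr959) in a fit where 4.36% of all genes were called. The sign leaned one way: 87 tested members had a negative slope and 15 a positive one. Of the 968 other Olfr genes 590 were negative and 378 positive, and of all 17975 genes tested 9221 were negative and 8754 positive. The median slope was -0.19 log2 units per doubling of age in the members, -0.11 in the other Olfr genes and 0.00 in all genes tested. The progenitor slope called 0 members (0.0% of all genes), and 4 positive and 0 negative slopes had an unadjusted p under 0.05 (3.92% of the members tested, 10.3% of all genes and 13.0% of the other Olfr genes). The median progenitor slope was 0.10 in the members and 0.13 in the other Olfr genes.

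The slope shared by both populations also called 0 members in edgeR (0.0% of all genes), with 5 positive and 3 negative at an unadjusted p under 0.05 (7.84% of the members tested, 20.8% of all genes). DESeq2 called 3 positive shared slopes among the members, in a fit that called 8.47% of all genes. The difference of the mature and progenitor slopes called 0 members in edgeR and 0 in DESeq2, beside 0.0% of all genes in edgeR, with 0 positive and 14 negative at an unadjusted p under 0.05 (13.7% of the members tested, 11.8% of the other Olfr genes and 5.98% of all genes). Its smallest p-values among negative members were those of Olfr876 and Olfr870, with differences of -0.46 (SE 0.11) and -0.39 (SE 0.10), both at an edgeR adjusted p of 0.806.

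The members' lower levels at older age were those of the P16 library, since the median log2 ratio of P2 to P7 in mature neurons was 0.03 in the tested members. In TPM, 89 of the 107 members were lower in P16 mature neurons than at both P2 and P7, and 11 were higher than at both. The same counts over all genes are not given here, but those at a 1.5-fold limit are. By CPM, 44 of the 102 tested members were at least 1.5-fold below both younger mature libraries (43.1%), where 13.9% of all genes tested and 37.1% of the other Olfr genes were. At least 1.5-fold above both stood 5 members (4.90%), beside 6.6% of all genes tested and 22.2% of the other Olfr genes. The distal cluster held 36 of the 44 lower members (of 72 tested) and all 5 higher ones, and the proximal cluster 8 (of 30 tested). The median log2 ratio of P16 to P7 in mature neurons was -0.61 in the tested members, -0.33 in the other Olfr genes and -0.01 in all genes. Olfr845 alone of the tested members was at least 1.5-fold higher at P2 than in both older mature libraries (3.55% of all genes tested). In P16 progenitors 2 tested members were at least 1.5-fold below the 3 younger libraries (3.61% of all genes tested). In progenitors the median P16 to P7 ratio was -0.05 in the tested members and 0.02 in the other Olfr genes. With 1 library per age there was no replicate check on the P16 mature values. The leukocyte, erythroid and ensheathing glia markers that were highest in that same library moved with this result, as did Bpifb9a of the Bowman gland list. Their part in it was not tested. Aqp5 of the Bowman gland list and the summed sustentacular markers were the lowest among mature neurons in that library. Its summed mature neuron markers were also the highest, at 28967 CPM, against 19906 CPM at P2 and 22431 CPM at P7, and its immature neuron markers the lowest, at 2053 CPM, against 2861 and 3027 CPM.

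The members' share of all counts on Olfr genes allowed the same comparison within the receptor family. It was 9.74% (95% Wilson interval 9.65 to 9.84) at P2, 9.21% (9.12 to 9.30) at P7 and 6.50% (6.43 to 6.58) at P16 in mature neurons. In progenitors it was 7.80% (7.68 to 7.93) at P3, 8.56% (8.44 to 8.69) at P7, 6.95% (6.84 to 7.06) at P9 and 7.38% (7.27 to 7.49) at P16. The intervals cover counting error only. The P16 mature share was the lowest of the 7 and lay below the progenitor range, while the P2 and P7 mature shares lay above that range. All Olfr genes together took 1.62%, 1.57% and 1.53% of gene counts at P2, P7 and P16 in mature neurons. Averaged over the libraries, the share was 8.49% ± 1.74 in mature neurons (SD, n = 3) and 7.67% ± 0.69 in progenitors (SD, n = 4), so the populations differed by less than the spread among mature libraries.

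**Figure D4:**
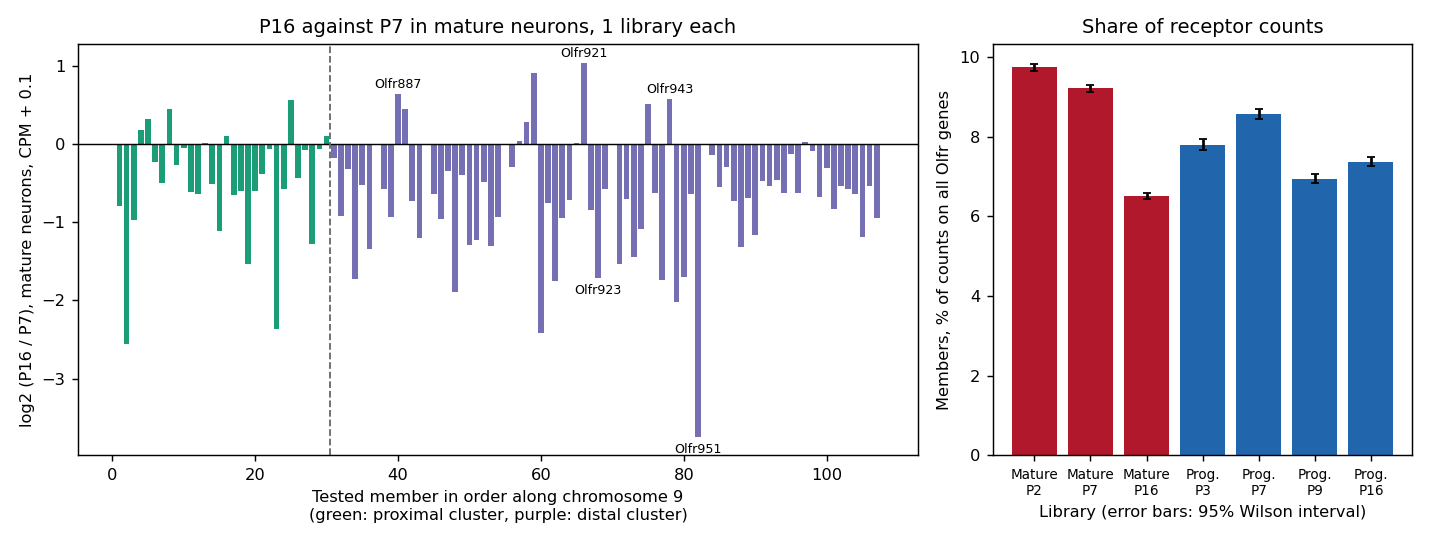
Left, the log2 ratio of P16 to P7 in mature neurons (CPM plus 0.1, 1 library each) for the 102 tested members in order along chromosome 9, green for the proximal and purple for the distal cluster. Of the bars, 85 point down and 17 up. The median ratio was -0.61 in these members, -0.33 in the other Olfr genes and -0.01 in all genes tested. Right, the members' counts as a percentage of counts on all Olfr genes in each library, with 95% Wilson intervals; the P16 mature library is lowest at 6.50%.

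A few receptors went against the general direction at P16. Olfr921 had 4.75, 7.87 and 13.5 TPM at P2, P7 and P16 in mature neurons, with 5.17, 7.29, 8.55 and 8.34 TPM at P3, P7, P9 and P16 in progenitors. Its slope in mature neurons was 0.47 log2 units per doubling of age (SE 0.10, edgeR adjusted p = 0.164), and its slope shared by both populations had an adjusted p of 0.0667. Olfr943 had 9.02, 11.3 and 16.1 TPM at P2, P7 and P16 in mature neurons (slope 0.28, SE 0.08, edgeR adjusted p = 0.196). Both genes were higher at each later age in mature neurons, though neither slope passed the test. Olfr943 shares exon bases with Gm47100 on the opposite strand, and the sources used here do not give the strand setting of the counting. Olfr887 had 5.64, 5.13 and 8.93 TPM and Olfr868 had 8.37, 8.83 and 12.3 TPM at P2, P7 and P16.

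The smallest p-values among negative slopes belonged to Olfr902, Olfr871, Olfr847 and Olfr959. Olfr902 had 9.57, 7.36 and 3.09 TPM at P2, P7 and P16 in mature neurons (slope -0.55, SE 0.14, edgeR adjusted p = 0.169). Olfr871 had 10.4, 7.37 and 2.46 TPM (slope -0.57, SE 0.15, edgeR adjusted p = 0.177). Olfr847 had 21.0, 13.7 and 9.97 TPM (slope -0.36, SE 0.10, edgeR adjusted p = 0.181). Each of these 3 had its highest level at P2 and its lowest at P16. Olfr870, the relative of Olfr871 at 97.5% coding identity, had 16.3, 14.4 and 14.4 TPM at the same ages.

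The promoters of Olfr921, Olfr943 and Olfr871 are shown because these genes had opposite slopes and their RefSeq starts lie within 50 bases of the GENCODE starts. Odorant receptor promoters are known for homeodomain sites, bound by factors such as Lhx2, and for sites of the Ebf family. The 250 bases before each RefSeq start (GRCm38.p6, plus strand) follow, with TAATGA on either strand (TCATTA when read on the other strand) in capitals. They are chr9:38772838-38773087 for Olfr921, chr9:39166060-39166309 for Olfr943 and chr9:20211957-20212206 for Olfr871.
Olfr921: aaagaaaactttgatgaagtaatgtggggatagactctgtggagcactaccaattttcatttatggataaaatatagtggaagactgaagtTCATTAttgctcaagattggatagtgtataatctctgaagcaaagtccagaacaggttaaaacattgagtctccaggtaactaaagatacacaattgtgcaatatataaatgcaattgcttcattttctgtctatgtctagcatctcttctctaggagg
Olfr943: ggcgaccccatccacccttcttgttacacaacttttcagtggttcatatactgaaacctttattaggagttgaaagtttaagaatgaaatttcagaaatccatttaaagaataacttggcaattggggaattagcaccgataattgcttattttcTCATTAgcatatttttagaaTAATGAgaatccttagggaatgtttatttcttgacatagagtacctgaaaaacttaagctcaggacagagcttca
Olfr871: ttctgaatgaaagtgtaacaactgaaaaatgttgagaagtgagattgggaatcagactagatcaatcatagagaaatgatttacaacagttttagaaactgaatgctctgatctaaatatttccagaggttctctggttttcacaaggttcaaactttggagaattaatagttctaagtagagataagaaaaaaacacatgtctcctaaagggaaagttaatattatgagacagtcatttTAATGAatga
Olfr921 and Olfr871 each hold 1 such match and Olfr943 holds 2. Olfr868, also named for a positive slope and with a usable start, is not printed. Its 250 bases hold 0 matches of TAATGA and 1 of TAATTA. None of these slopes passed the test, and a link between motif and slope was not tested. RefSeq had an entry for 90 members, but most of these began at the coding start, and 11 entries could be used. Within 300 bases around the start, TAATTA or TAATGA on either strand occurred in 7 of those 11 members (63.6%), 34 of 63 other Olfr genes (54.0%) and 13.9% of all 32851 promoters. The Ebf core CCCNNGGG, which reads the same on both strands, occurred in 1 of 11 members (9.09%), 11 of 63 other Olfr genes (17.5%) and 13.7% of all promoters. A match is a string of letters in this window and not a measured site.

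The genes that act with the receptors were followed in lists. In the odorant transduction list, 16 of 17 genes were higher in mature neurons and none was lower, with a median log2 fold change of 1.74. Of all genes tested, 28.8% were higher and 30.0% lower. Gnal, Gng13, Adcy3, Cnga2, Cnga4, Cngb1, Ano2, Stoml3 and Omp are also among the mature neuron markers above, as is Rtp1 of the trafficking genes. The lists are therefore not separate results. Gng13, a G protein gamma subunit of olfactory cilia, had a mean of 998 CPM (SD 79.9, n = 3) in mature neurons, against 321 CPM (SD 47.1, n = 4) in progenitors, a log2 fold change of 1.64. Adcy3, the adenylyl cyclase that makes cAMP after odorant binding, had 1985 ± 589 CPM in the mature libraries, against 425 ± 108 CPM in the progenitor libraries (SD, n = 3 and 4). Among the trafficking genes, which help receptors reach the cell surface, 3 of 4 were higher, with Rtp2 at 1108 ± 40.9 CPM in the mature libraries, against 487 ± 38.8 CPM in the progenitor libraries (SD, n = 3 and 4).

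Genes known from receptor choice mostly ran the other way. A list of factors of receptor enhancers, together with genes of receptor activation and its feedback (Atf5, Ddit3, Eif2ak3 and Kdm1a), had 9 of 14 genes lower and 2 higher (Ebf4 and Ddit3) in mature neurons, with a median log2 fold change of -0.48. One of its genes, Lhx2, is also among the progenitor markers above. Lhx2, the homeodomain factor that binds receptor enhancers, had 386 ± 56.5 CPM in the mature libraries, against 855 ± 53.3 CPM in the progenitor libraries (SD, n = 3 and 4), and its partner Ldb1 had 183 ± 22.9 CPM in the mature libraries, against 450.3 ± 16.9 CPM in the progenitor libraries. Kdm1a, the histone demethylase that acts early in receptor activation, had 123 ± 4.83 CPM in the mature libraries, against 303 ± 27.4 CPM in the progenitor libraries. In the silencing list 11 of 13 were lower and none was higher, with a median of -0.68. Ehmt1, a histone H3 lysine methyltransferase, had 46.6 ± 1.35 CPM in the mature libraries, against 143 ± 10.8 CPM in the progenitor libraries (SD, n = 3 and 4).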

How the data were processed

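Libraries were made with a stranded polyA mRNA kit after sorting and TRIzol extraction, per the labels' protocols. Per the submitters' processing notes, bcl2fastq 2.18, STAR 2.6.1c, RSEM and the mm10 build were used. The authors deposited whole-number read counts per gene and, separately, TPM per gene from RSEM. Rows that name no gene (23.5% to 27.2% of a library, of which multimapping reads 11.9% to 13.9%) entered neither library sizes nor tests. Here the counts were scaled by TMM, kept by filterByExpr and tested with edgeR 4.0.16 (quasi-likelihood, Benjamini-Hochberg over all 17975 tested genes, threshold 0.05) in R 4.3.3. DESeq2 1.42.0 and limma 3.58.1 on log2(TPM + 1) or log2(TPM + 0.1) were alternatives. CPM are TMM-scaled. The age slopes used 3 residual degrees of freedom for separate slopes, and p-values measure the spread between libraries of different ages. No pair of libraries was identical. The labels carry no replicate numbers, and only P7 and P16 occur in both populations.

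The naming rule uses no measured value, but this set of receptors and the gene lists were chosen with earlier results of these data known. Named members were the 8 highest in mature neurons, the 4 highest in progenitors, the 5 smallest p-values in each direction between populations, the 4 in each direction of the mature slope, the 2 in each direction of the slope difference, and the closest pair. Identity was computed over coding bases of the mouse reference (GENCODE, GRCm38) and not over proteins as first planned. The scripts were tested on simulated counts.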

Additional observations from a re-analysis of the deposited data

Results flagged for a closer look

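Among 31 sets of values in the 4 progenitor libraries (28 named members and 3 values over all members), 1 held a library far from the others by Dixon's criterion, which chance meets about 1 time in 20. Olfr944 stood at 14.79 TPM in P7 progenitors, against 7.15 TPM at P3, 8.09 TPM at P9 and 8.24 TPM at P16. Olfr951, Olfr936, Olfr917, Olfr915 and Olfr855 were also highest in that library among the progenitors, though they did not meet the criterion. The median over all members was highest there too, at 4.09 TPM, against 2.96 TPM at P3, 3.33 TPM at P9 and 3.14 TPM at P16.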

How the results depend on the processing

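The count of members called higher in mature neurons, 82, was between 58 (limma on log2(TPM + 1) without a filter) and 86 (DESeq2) under the other settings, and leaving out each library gave 68 to 87. The count called lower, 7, was between 7 and 9, and 7 to 8 when leaving out each library. In a fit of the P7 and P16 libraries with age as a replicate block, 61 were called higher and 9 lower. The shares of all genes called higher or lower under these settings are not given here, so these shifts are not read as particular to the members. Members called for an age slope in mature neurons, 0 in edgeR, numbered 5 of 102 with DESeq2 (4.36% of all genes called), 7 with postnatal day on a linear scale (6.50% of all genes) and 0 to 6 when leaving out each library: 6 without mature P7 (4.42% of all genes) and 2 without mature P2 (1.17%). Members called for the slope shared by both populations, 0 in edgeR, numbered 3 with DESeq2 (8.47% of all genes), 1 without a filter (2.35%), 1 on the linear scale (6.25%), and 0 to 1 when leaving out each library, with 1 without mature P7 (5.35%). The cause of these differences was not tested. The difference of slopes called 0 members in every setting run. The log2 fold change of Olfr921, 0.48 and not called, lay between -0.059 (without mature P16) and 0.746 (without mature P2) when leaving out each library. The slope difference of Olfr936, which rests on 1 count in mature neurons, was 1.37 in edgeR, -0.038 with limma on log2(TPM + 1), and -0.11 (without mature P16) to 2.65 (without mature P2) when leaving out each library. Of the named members' log2 fold changes under the alternatives, 378 kept their direction and call, 20 lost the call, 6 gained it and 1 changed sign.

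Each age of a population is 1 library, so age and library cannot be told apart, nor can population and mouse line. Members with few counts, such as Olfr850 and Olfr936 in mature neurons, are limited by depth, and close relatives by multimapping reads.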

Other observations

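The members' RNA was more concentrated in mature neurons than in progenitors. The 10 most abundant members made up 34.3%, 34.1% and 36.2% of the members' summed TPM in P2, P7 and P16 mature neurons, against 28.7%, 27.2%, 28.2% and 27.7% in P3, P7, P9 and P16 progenitors. The 2 sets of values do not overlap. At 2 TPM or more, 97, 97 and 84 members were found in the mature libraries, against 70, 79, 68 and 74 in the progenitor libraries, while at 0.5 TPM the counts were 101, 100 and 96 in mature neurons, against 100, 102, 102 and 101 in progenitors. In all, 78 members reached 1 TPM in every library and 4 reached it in none. The same values over the other Olfr genes and over all genes are not given here. These shares and counts are therefore not read as particular to the members.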
